A study of Mus musculus with 12 samples.

Results

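The 8 genes Avil, Angptl6, Maged1, Ggcx, Dtx1, Col6a2, Hic1 and Pygm were followed over all 6 groups of an RNA-sequencing experiment in mouse CD8 T cells. They were picked from these same data for large rises in Tmed10 knockout (KO) cells or in cells given the compound AGN192403, and because they lie outside the usual lists of stress genes. No cut-off was stated for the choice. The 8 genes are 8 of the 46603 gene identifiers in the deposited count table, and all 8 were among the 13167 genes tested. Because the differences between KO or AGN192403 cells and control cells chose the genes, those differences are given below as a description, with no test. The response to activation in control cells was not part of the choice, and it is the only contrast in which the 8 genes were tested.

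TMED10 belongs to the family of TMED transport proteins, which sit in the membranes of the early secretory pathway and help to sort newly made proteins into the vesicles that run between the endoplasmic reticulum (ER) and the Golgi. T cells send many receptors, cytokines and granule proteins through this route, and its load grows when they are activated. The 8 genes have unlike roles. Avil encodes an actin-binding protein, Angptl6 a secreted growth factor, Maged1 an adaptor of ubiquitin ligases, Ggcx an ER enzyme that needs vitamin K, Dtx1 a ubiquitin ligase of Notch signaling, Col6a2 a collagen chain, Hic1 a transcriptional repressor and Pygm an enzyme that breaks down glycogen.

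OT-I/Cas9 CD8 T cells carry a transgenic receptor for an ovalbumin peptide and express the Cas9 nuclease. They were taken from mouse spleens, activated on antibodies to CD3 and CD28, given a retroviral guide RNA, selected with puromycin and grown with IL-2, IL-7 and IL-15. Each group was therefore an edited population rather than a clone, and resting means that cells were not stimulated again. The 6 groups of 2 libraries were activated KO cells (guide against Tmed10, water as vehicle), activated AGN192403 cells (control guide, 100 µM AGN192403), activated control cells (control guide, water), and the same 3 at rest. Activated cells had spent 24 h on plates coated with anti-CD3 at 2.5 µg/mL. AGN192403 is an imidazoline receptor ligand that the study used to lower TMED proteins. It was given to cells with the control guide, so the KO and AGN192403 comparisons share the same control libraries. The labels number the replicates, but nothing says that they came from separate cultures or mice, so p-values may measure technical spread only.

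Each library held between 9089350 and 16481840 counts (median 12192220.5). Levels are given as read counts relative to scaled library size (CPM) with both libraries of a group listed. Tmed10 itself was at 55.9 and 58.3 CPM in activated KO cells, against 128 and 125 CPM in activated control cells, and at 61.5 and 65.1 CPM in resting KO cells, against 116 and 117 CPM in resting control cells. The KO libraries thus stood apart from the control libraries in the direction of their labels, with transcript remaining. In AGN192403 cells Tmed10 was at 134 to 144 CPM. All 10 CD8 T cell markers were detected, and they summed to 21388 to 22389 CPM in activated KO cells, 16200 to 17513 CPM in activated AGN192403 cells and 23201 to 24227 CPM in activated control cells. The most abundant of the 10 was the granzyme gene Gzmb. Without Gzmb the others summed to between 3299 and 4111 CPM over all 12 libraries. The nuclear RNA Malat1 differed within groups: it was at 1833 and 752 CPM in activated AGN192403 cells, 1631 and 989 CPM in activated control cells, and 2594 and 1540 CPM in resting control cells, and lower in KO cells (400 to 437 CPM activated, 733 to 751 CPM resting). NK cell markers summed to 107 to 110 CPM in activated KO cells, 115 to 122 CPM in activated AGN192403 cells and 86.7 to 87.9 CPM in activated control cells, and CD4 T cell markers to 52.8 to 59.2 CPM in activated KO cells, 72.2 to 74.8 CPM in activated AGN192403 cells and 40.5 to 45.5 CPM in activated control cells. Mast cell markers summed to 56.2 to 60.8 CPM in activated KO cells, 53.0 to 53.7 CPM in activated AGN192403 cells and 44.1 to 46.7 CPM in activated control cells. At rest NK cell and mast cell markers were lower in AGN192403 cells (133 to 143 CPM and 48.3 to 52.3 CPM) than in control cells (169 to 181 CPM and 77.0 to 80.5 CPM). Most of each of these sums came from a single gene: Eomes for NK cells, Zbtb7b for CD4 T cells and Kit for mast cells. Without that gene the other markers summed to 3.71 to 7.64 CPM, 1.79 to 9.69 CPM and 0 to 1.00 CPM over all 12 libraries. The mast cell markers Mcpt4, Fcer1a and Tpsb2 were at 0 in all 12 libraries. The part of these markers in the results below was not tested. In such bulk samples, fewer cells of a type and less RNA per cell cannot be told apart.

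The 8 genes fell into 2 patterns of 4. Avil, Angptl6, Maged1 and Ggcx were higher in activated KO cells and still higher in activated AGN192403 cells than in activated control cells. Dtx1, Col6a2, Hic1 and Pygm were higher in resting KO cells than in any other group, and they were lower in activated than in resting cells of every kind. In activated KO cells 7 of the 8 genes had both libraries above both control libraries, in a contrast in which edgeR called 10.8% of all genes higher and 8.78% lower (adjusted p under 0.05). The count was 5 of 8 in resting KO cells (2.81% of all genes called higher, 4.63% lower), 5 of 8 in activated AGN192403 cells (16.4% higher, 18.3% lower) and 4 of 8 in resting AGN192403 cells (11.6% higher, 13.7% lower), where 2 more genes, Hic1 and Pygm, had both libraries below both control libraries. Lack of overlap between 2 and 2 libraries is a different measure from an edgeR call, and its share over all genes was not computed. It can go with a small difference, as for Pygm in resting AGN192403 cells (log2 fold change -0.04, SE 0.14). These contrasts also chose the genes, so nothing is read from the counts.

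**Figure D1:**
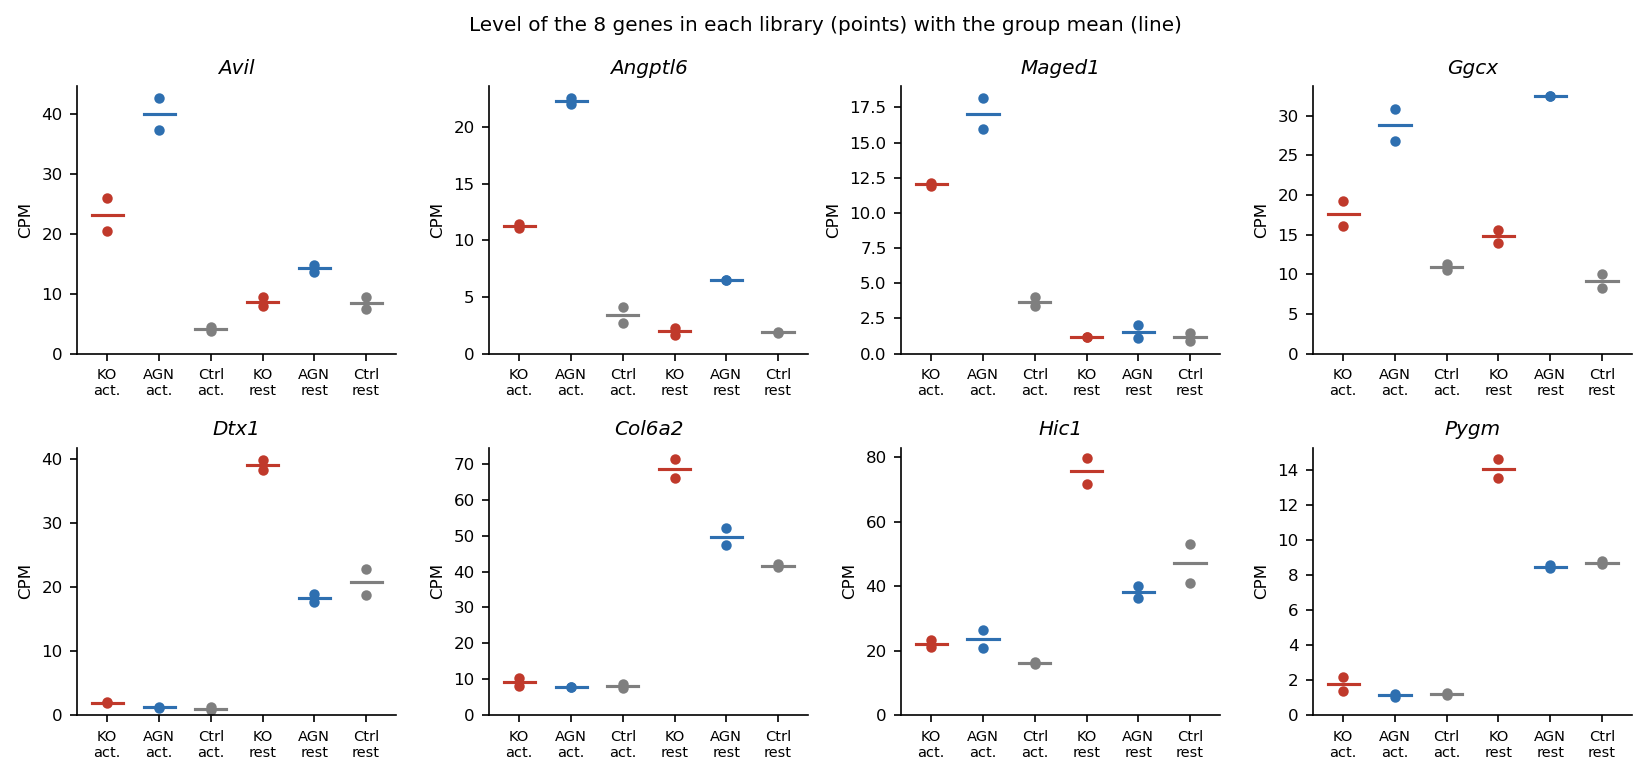
Level of each of the 8 genes in CPM (vertical axis, starting at 0) in KO, AGN192403 (AGN) and control (Ctrl) cells, activated (act.) on the left and resting on the right; points are single libraries and lines are means of 2. In the upper row Avil reaches 40.04 CPM in activated AGN192403 cells and 23.2 CPM in activated KO cells, against 4.06 CPM in activated control cells, and in the lower row all 4 genes are highest in resting KO cells.

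Avil encodes advillin, a member of the gelsolin and villin family of proteins that bind and remodel actin filaments, and is best known from sensory neurons and tuft cells. The gene lies on the plus strand of chromosome 10 (GRCm38, 127000709 to 127020994). It was at 20.5 and 25.9 CPM in activated KO cells, at 37.4 and 42.7 CPM in activated AGN192403 cells and at 3.75 and 4.36 CPM in activated control cells. No library of one of these groups overlapped with another group, and the control libraries were lowest. The log2 fold change was 2.48 (SE 0.16) with KO and 3.31 (SE 0.14) with AGN192403, which is 5.57-fold and 9.90-fold. At rest Avil was at 9.44 and 7.86 CPM in KO cells, 14.8 and 13.6 CPM in AGN192403 cells and 9.49 and 7.42 CPM in control cells. Resting KO and control libraries overlapped (log2 fold change 0.09, SE 0.17), whereas both resting AGN192403 libraries were above all others at rest (log2 fold change 0.76, SE 0.15).

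Marker genes of the cell types that usually express advillin were looked at beside it. The 7 sensory neuron markers summed to 7.10 to 8.72 CPM in activated KO cells, 8.45 to 9.63 CPM in activated AGN192403 cells and 5.50 to 6.38 CPM in activated control cells. The most abundant of the 7 was Tubb3, a tubulin gene. Without Tubb3 the other 6 summed to between 1.20 and 5.19 CPM over all 12 libraries. Their part in the Avil difference was not tested. Of the 5 tuft cell markers, Pou2f3, Chat and Gfi1b were at 0 in all 12 libraries, and the sum of the 5 was lower in activated KO cells (1.67 to 1.94 CPM) and AGN192403 cells (0.944 to 1.25 CPM) than in activated control cells (2.58 to 3.19 CPM).

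The promoter of Avil was the only one of the 8 that held a sequence shared by targets of ATF4 and C/EBP factors, so it is printed here. It is the RefSeq window of 300 bases on the plus strand of GRCm38.p6, chr10:127000459-127000758, which spans 250 bases before the annotated start and 50 bases after it. Capitals mark the letters TGATGCAA, which lie 17 to 10 bases before the start.
Avil promoter: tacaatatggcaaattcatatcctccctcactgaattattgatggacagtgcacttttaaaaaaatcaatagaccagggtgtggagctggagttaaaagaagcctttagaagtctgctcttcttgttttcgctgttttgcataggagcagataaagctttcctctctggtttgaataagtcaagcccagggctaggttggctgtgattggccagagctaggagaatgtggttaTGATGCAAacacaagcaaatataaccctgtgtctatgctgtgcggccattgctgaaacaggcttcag
Both strands were searched. Of all 32851 promoter windows of this length, 294 (0.895%) held these letters on either strand. None of the 10 windows of the 8 genes (Col6a2 and Hic1 have 2 each) held the variant TGATGAAA (1.02% of all windows), TGACGTCA of the cyclic AMP response element (1.79%), TGACGTGG of the unfolded protein response element (0.676%), the longer ER stress response element (0.119%), the E-box CACGTG (7.15%) or GTGGGAA, bound by the Notch effector RBPJ (6.38%). A match is a description of letters and not a site in use. The Avil window held 43.0% G and C and 2 CpG dinucleotides, against a median of 52.7% G and C over all windows, and the windows of the other 7 genes held 55.7% to 77.3%.

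Avil overlaps Tsfm, a mitochondrial translation factor gene on the opposite strand, over 9423 bases. The libraries were stranded, but the strand setting of the counting is not given in the sources used here, and 3.03% of the 65-base stretches of Avil transcripts also occur in Tsfm on the opposite strand. Tsfm was at 28.3 and 23.9 CPM in activated KO cells, 25.9 and 26.4 CPM in activated AGN192403 cells and 28.1 and 30.3 CPM in activated control cells. Its log2 fold change was -0.14 with KO (adjusted p = 0.288, edgeR) and -0.16 with AGN192403 (adjusted p = 0.161), so the partner on the other strand did not pass the test in the cells where Avil differed most.

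The other 6 tested genes of the gelsolin and villin family differed less. Scin, which encodes the actin-severing protein scinderin, rose in activated KO cells (69.5 CPM, against 53.1 CPM in activated control cells; log2 fold change 0.39, SE 0.06, adjusted p = 2.57e-05) and in activated AGN192403 cells (67.8 CPM; 0.36, SE 0.06, adjusted p = 3.86e-05). Capg, the gene of a macrophage-type capping protein, rose by 0.22 on the log2 scale in activated KO cells (adjusted p = 0.00087, edgeR) and by 0.14 in activated AGN192403 cells (adjusted p = 0.0177), where the call held in 17 of 20 alternative analyses. None of the 6 fell in these 2 contrasts, and their median log2 fold changes were -0.06 with KO and -0.05 with AGN192403, against 0.02 and -0.01 over all genes. In resting AGN192403 cells 0 rose and 4 of 6 fell, with Scin at -0.60 and Gsn, gelsolin itself, at -0.29 on the log2 scale. In resting KO cells none was called. The shares of all genes called higher and lower were 10.8% and 8.78% in activated KO cells and 2.81% and 4.63% in resting KO cells. With AGN192403 they were 16.4% and 18.3% in activated and 11.6% and 13.7% in resting cells. These shares are the background for the counts of this list and of every list below.
The genes whose levels tracked Avil most closely over the 12 libraries were Anxa5, a calcium-dependent lipid-binding protein (Pearson r = 0.985 of log2 CPM), Fam171b (0.953) and Sqstm1, the autophagy receptor p62 (0.952). They were the top 3 of 10459 genes searched. Such values describe libraries that share groups, and no p is given for them. Anxa5 averaged 164 CPM in activated KO cells, 194 CPM in activated AGN192403 cells and 103 CPM in activated control cells, so it had the order of Avil with a smaller range.

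Angptl6 encodes an angiopoietin-like protein, a secreted factor that in mice is made mainly by the liver and acts on blood vessels and energy use. It lies on the minus strand of chromosome 9 (GRCm38, 20873808 to 20879727). It was at 11.1 and 11.4 CPM in activated KO cells, 21.99 and 22.6 CPM in activated AGN192403 cells and 2.67 and 4.11 CPM in activated control cells, and again no libraries overlapped between these groups. The log2 fold change was 1.72 (SE 0.17) with KO and 2.72 (SE 0.15) with AGN192403. At rest it was at 2.28 and 1.64 CPM in KO cells (37 and 15 counts), 6.45 and 6.51 CPM in AGN192403 cells and 1.90 and 1.82 CPM in control cells (19 and 24 counts). Resting KO libraries lay on both sides of the control libraries (log2 fold change 0.14, SE 0.28), and resting AGN192403 libraries were 3.49-fold higher than control libraries. Of 6 hepatocyte markers, Alb, Ttr, Serpina1a, Cyp2e1 and Tat were at 0 in all 12 libraries, and the sum of all 6 reached at most 0.124 CPM.

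Of the 11 other angiopoietin and angiopoietin-like family genes in the table, only Angptl4 was expressed enough to be tested. It averaged 8.86 CPM in activated KO cells, 9.32 CPM in activated AGN192403 cells and 7.48 CPM in activated control cells, and was not called in any KO or AGN192403 contrast. Tek and Tie1, the receptors of the angiopoietins, were at 0 in all 6 groups. Angptl6 overlaps A230050P20Rik on the opposite strand over 500 bases, and 13.3% of the 65-base stretches of its transcripts occur there too. A230050P20Rik was at 24.1 and 21.6 CPM in activated KO cells, 23.9 and 23.3 CPM in activated AGN192403 cells and 20.7 and 20.1 CPM in activated control cells (log2 fold changes 0.18 with KO and 0.21 with AGN192403, neither called). It rose in resting AGN192403 cells (24.2 CPM, against 19.4 CPM in resting control cells; 0.32, adjusted p = 0.0168, edgeR; lost in 3 of 20 alternative analyses), so reads from the shared stretch leave part of the resting Angptl6 value uncertain.
The closest gene to Angptl6 over the 12 libraries was Atf5, a transcription factor of the integrated stress response (Pearson r = 0.985), followed by Golt1b, a Golgi transport protein (0.982), and Ext1, which builds heparan sulfate in the Golgi (0.979). Atf5 was at 34.0 and 33.1 CPM in activated KO cells, 53.1 and 59.4 CPM in activated AGN192403 cells and 14.3 and 15.6 CPM in activated control cells. At rest Atf5 was at 21.2 and 20.1 CPM in AGN192403 cells and 6.99 and 6.51 CPM in control cells, the same order as Angptl6 in these groups. In resting KO cells the genes differed. There Atf5 was at 9.81 and 8.62 CPM, above both control libraries, whereas the Angptl6 libraries lay on both sides of the control libraries.

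Maged1 encodes a protein with a MAGE homology domain that binds the p75 neurotrophin receptor and serves as an adaptor for ubiquitin ligases. The gene lies on the minus strand of chromosome X (GRCm38, 94535474 to 94542143). Maged1 was at 11.9 and 12.2 CPM in activated KO cells, 15.9 and 18.2 CPM in activated AGN192403 cells and 4.00 and 3.36 CPM in activated control cells. These groups did not overlap, and the log2 fold change was 1.71 (SE 0.17) with KO and 2.22 (SE 0.16) with AGN192403. At rest Maged1 had between 9 and 19 counts per library, which is 1.17 and 1.20 CPM in KO cells, 2.01 and 1.07 CPM in AGN192403 cells and 0.899 and 1.44 CPM in control cells. All 3 resting groups overlapped, and at this depth a difference between them was not detectable.

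Maged2, a relative of Maged1 on the X chromosome that in humans helps kidney ion transporters to reach the cell surface, followed it at a higher level. It rose to 36.8 and 39.4 CPM in activated KO cells and to 53.6 and 58.1 CPM in activated AGN192403 cells, against 23.5 and 22.6 CPM in activated control cells (log2 fold changes 0.71, adjusted p = 3.12e-07, and 1.28, adjusted p = 5.71e-13, edgeR). Maged2 also rose in resting AGN192403 cells (24.0 and 26.2 CPM, against 14.9 and 14.1 CPM in resting control cells; 0.81, adjusted p = 5.22e-07). Mageh1 was called higher in both activated groups, from 24 and 6 counts in KO cells and 11 and 26 counts in AGN192403 cells, against 5 and 2 counts in control cells, but the KO call was lost in 3 of 18 alternative analyses and the AGN192403 call in 2 of 19. Of the 6 tested genes of this list, which also holds the ligases Trim27 and Trim28, 2 rose and 0 fell in activated KO cells, 3 rose and 1 fell in activated AGN192403 cells, 2 rose and 0 fell in resting AGN192403 cells and none was called in resting KO cells. Trim28, a corepressor that MAGE proteins bind, was the one that fell in activated AGN192403 cells (-0.35, adjusted p = 6.47e-08, edgeR). The median log2 fold changes of the 6 were 0.12 with KO and 0.18 with AGN192403 in activated cells, against 0.02 and -0.01 over all genes.
The genes closest to Maged1 over the 12 libraries were Ppib, an ER prolyl isomerase (Pearson r = 0.992), Dnajc10, an ER disulfide reductase (0.982), and Sdf2l1, an ER protein found with the chaperone BiP (0.980), which makes all 3 genes of protein folding in the ER. Ppib averaged 368 CPM in activated KO cells, 381 CPM in activated AGN192403 cells and 323 CPM in activated control cells.

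Ggcx encodes gamma-glutamyl carboxylase, an enzyme of the ER membrane that uses reduced vitamin K to modify clotting factors and a few other secreted proteins. It lies on the plus strand of chromosome 6 (GRCm38, 72414308 to 72430712). In activated cells it was at 19.2 and 16.03 CPM with KO, 30.9 and 26.8 CPM with AGN192403 and 10.5 and 11.3 CPM in control cells. At rest it was at 14.01 and 15.6 CPM in KO cells, 32.5 and 32.5 CPM in AGN192403 cells and 10.1 and 8.32 CPM in control cells. Ggcx was the only one of the 8 genes with both libraries above both control libraries in all 4 contrasts. The log2 fold changes were 0.72 (SE 0.12) and 0.68 (SE 0.13) with KO in activated and resting cells, and 1.39 (SE 0.11) and 1.84 (SE 0.11) with AGN192403. Between activated and resting cells the KO value differed by 0.04 (SE 0.18) and the AGN192403 value by -0.45 (SE 0.16).

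The vitamin K cycle list held 10 other tested genes. Calu, whose product calumenin is an ER calcium-binding inhibitor of the carboxylase, rose in all 4 contrasts, by 0.55 and 0.35 on the log2 scale in activated and resting KO cells and by 0.79 and 0.65 in activated and resting AGN192403 cells (adjusted p from 9.82e-13 to 6.15e-05, edgeR). Nqo1, a quinone reductase that can reduce vitamin K, rose to 6.74 and 5.49 CPM in activated KO cells and to 6.89 and 8.45 CPM in activated AGN192403 cells, against 1.92 and 3.19 CPM in activated control cells (1.29, adjusted p = 0.000134, and 1.60, adjusted p = 1.71e-06). Vkorc1, which regenerates reduced vitamin K and is the target of warfarin, rose in activated AGN192403 cells (10.1 CPM, against 5.69 CPM in activated control cells; 0.82, adjusted p = 0.000158). Pros1, the gene of protein S, a substrate of the carboxylase, fell by 0.23 in activated KO cells and by 0.36 in activated AGN192403 cells on the log2 scale (adjusted p = 0.00477 and 2.83e-05, edgeR); the KO call was lost in 1 of 20 alternative analyses. In all, 3 rose and 1 fell in activated KO cells, 5 rose and 1 fell in activated AGN192403 cells, 1 rose in resting KO cells and 1 rose and 1 fell in resting AGN192403 cells. The medians were 0.14 and 0.11 in activated KO and AGN192403 cells and 0.04 and 0.03 at rest, against -0.01 to 0.02 over all genes in the same contrasts.
Ggcx had as its closest genes Cope, a subunit of the COPI coat (Pearson r = 0.979), Golga5, a Golgi tether (0.978), and Gbf1, which starts COPI coat formation (0.976). All 3 act in transport at the Golgi. Gbf1 averaged 237 CPM in activated and 262 CPM in resting AGN192403 cells, and 139 CPM in activated and 126 CPM in resting control cells.

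**Figure D2:**
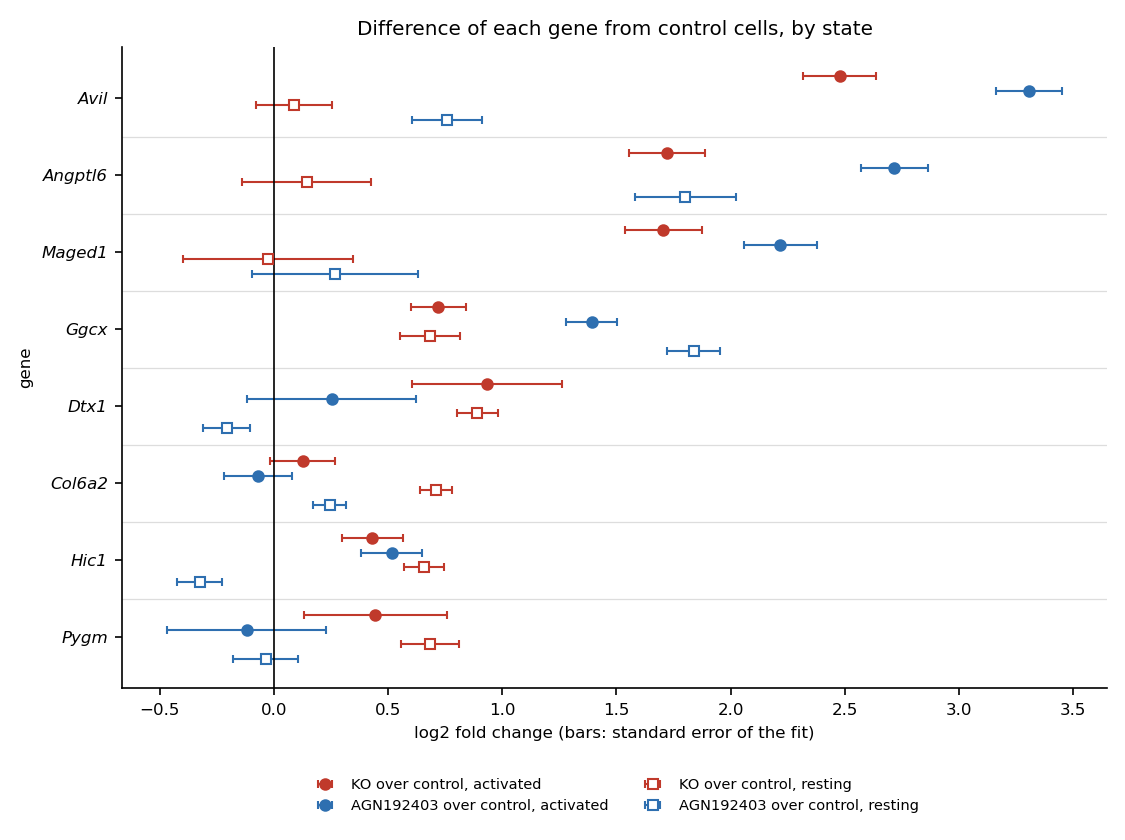
Log2 fold change of each gene (rows) over control cells, with bars for 1 standard error of the fit over 12 libraries; filled circles are activated cells, open squares are resting cells, red is KO and blue is AGN192403. Avil, Angptl6 and Maged1 lie furthest to the right in activated cells, and Dtx1, Col6a2 and Pygm lie to the right of 0 in resting KO cells (0.69 to 0.89) but close to 0 in activated AGN192403 cells.

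Dtx1 encodes Deltex 1, a RING-type ubiquitin ligase that acts on Notch signaling and that has been described in T cell anergy, the unresponsive state of T cells stimulated without costimulation. It lies on the minus strand of chromosome 5 (GRCm38, 120680202 to 120711927). In resting cells it was at 38.3 and 39.8 CPM in KO cells, 18.9 and 17.7 CPM in AGN192403 cells and 18.8 and 22.8 CPM in control cells. Both KO libraries were above all other libraries, and AGN192403 and control libraries overlapped. The log2 fold change was 0.89 (SE 0.09) with KO and -0.21 (SE 0.10) with AGN192403. Activated cells held little of it, with 30 and 19 counts in KO cells, 12 and 17 counts in AGN192403 cells and 10 and 14 counts in control cells. These are 1.85 and 2.04 CPM in KO cells, 1.13 and 1.25 CPM in AGN192403 cells and 0.833 and 1.18 CPM in control cells, and the activated KO difference of 0.93 had an SE of 0.33.

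Among 26 other tested genes of the Notch pathway, none rose in resting KO cells, where Dtx1 was highest, and 2 fell: the receptor gene Notch1 (302 CPM, against 372 CPM in resting control cells; -0.30, adjusted p = 0.000466) and Rbpj, which encodes the DNA-binding effector of the pathway (-0.25, adjusted p = 0.00189, edgeR). The Notch1 call held in 19 of 20 alternative analyses and the Rbpj call in 18. In that contrast 2.81% of all genes were called higher and 4.63% lower, so nothing is read from these small counts. The median of the 26 was -0.05 in resting KO cells, against 0.00 over all genes. In resting AGN192403 cells 0 rose and 6 fell (11.6% and 13.7% of all genes), Notch1 most (-0.52, adjusted p = 3.96e-08, edgeR), with a median of -0.11. Dtx4, another Deltex ligase gene, was called higher than in control cells in the activated groups instead. It had 36 and 23 counts in KO cells and 48 and 64 counts in AGN192403 cells, against 4 and 3 counts in control cells (log2 fold changes 2.94, SE 0.41, adjusted p = 9.56e-06, and 3.94, SE 0.35, adjusted p = 1.93e-09, edgeR). Like Dtx1, Dtx4 was lower in activated than in resting cells of every kind. In KO, AGN192403 and control cells it averaged 2.35, 4.62 and 0.293 CPM when activated, against 8.31, 8.81 and 6.84 CPM at rest. In control cells this fall was -4.49 on the log2 scale (adjusted p = 3.15e-12, edgeR). In activated KO cells 4 of the 26 rose and 3 fell (10.8% and 8.78% of all genes). In activated AGN192403 cells 6 rose and 4 fell (16.4% and 18.3% of all genes). The medians were 0.08 and 0.02.

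The 14 anergy genes other than Dtx1 did not move in one direction. In resting KO cells Nt5e, which encodes the ectonucleotidase CD73, rose (99.4 CPM, against 72.3 CPM in resting control cells; 0.46, adjusted p = 6.53e-06), and Egr2, a transcription factor that anergy needs, fell (1.495 CPM, against 4.09 CPM; -1.36, adjusted p = 0.00157). The ligase Cblb and the diacylglycerol kinase Dgka fell by 0.17 and 0.15 on the log2 scale in resting KO cells (adjusted p = 0.019 and 0.0215, edgeR), calls that were each lost in 10 of 20 alternative analyses. In all 1 rose and 3 fell there, with a median of -0.07, and 0 rose and 7 fell in resting AGN192403 cells, with a median of -0.17. In activated cells 3 rose and 2 fell with KO and 5 rose and 4 fell with AGN192403, with medians of 0.13 and 0.12.
The genes closest to Dtx1 over the 12 libraries were Ccni, a cyclin gene, Cd160, a receptor of cytotoxic cells, and Tcrg-C2, a constant region of the gamma chain (Pearson r = 0.994 each). Cd160 averaged 180 CPM in resting KO cells and 148 CPM in resting control cells.

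Col6a2 encodes the alpha-2 chain of collagen VI, which assembles with the alpha-1 chain and one more into microfibrils of the extracellular matrix. It lies on the minus strand of chromosome 10 (GRCm38, 76595762 to 76623630). Resting levels were 65.98 and 71.4 CPM in KO cells, 52.1 and 47.3 CPM in AGN192403 cells and 41.2 and 42.1 CPM in control cells, so the 3 groups did not overlap. The log2 fold change was 0.71 (SE 0.07) with KO and 0.24 (SE 0.07) with AGN192403. In activated cells it was at 8.10 and 10.2 CPM with KO, 7.83 and 7.72 CPM with AGN192403 and 8.75 and 7.55 CPM in control cells, and the KO and AGN192403 libraries both overlapped with the control libraries (0.13, SE 0.14, with KO and -0.07, SE 0.15, with AGN192403).

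Col6a1, its partner chain, was the gene closest to Col6a2 over the 12 libraries (Pearson r = 0.996), ahead of Wdr82 and Gimap1os (0.995 each). Col6a1 was at 23.4 and 22.8 CPM in resting KO cells, 17.4 and 17.8 CPM in resting AGN192403 cells and 18.4 and 14.98 CPM in resting control cells, and it rose with KO (0.49, SE 0.10, adjusted p = 0.00239, edgeR; the call held in 18 of 20 alternative analyses). Col6a3, the usual partner of both, was close to absent, with at most 0.05 CPM in a group mean. Of the 7 tested collagen chain genes other than Col6a2, Col6a1 was the only one called in resting KO cells, and the median of the 7 was -0.42, against 0.00 over all genes. That median rests partly on low levels: Col5a3, Col15a1 and Col9a3 averaged 0, 0.798 and 1.11 CPM in resting KO cells, against 0.126, 1.13 and 1.61 CPM in resting control cells. Col18a1 was also lower with KO (2.76, against 4.41 CPM), whereas Col11a2 (11.2, against 10.3 CPM) and Col27a1 (7.38, against 4.79 CPM) were higher. In activated KO cells Col5a3, a chain of collagen V, was the only one called (6.83 CPM, against 3.47 CPM in activated control cells; 1.00, adjusted p = 0.00069; lost in 1 of 20 alternative analyses), and none was called with AGN192403. Col3a1 and Pdgfra, defining genes of fibroblasts, were at 0 in all 12 libraries. The 11 stromal markers summed to 1726 to 1733 CPM in resting KO cells, 1499 to 1507 CPM in resting AGN192403 cells and 1667 to 1705 CPM in resting control cells. Nearly all of this was Thy1, which mouse T cells express, and the other 10, Col6a1 included, summed to between 6.84 and 25.9 CPM per library.

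Some of the genes that fold and export collagen were called in each of the 4 contrasts. Serpinh1, Fkbp10, P4ha3 and Colgalt2 of this list were too low to be tested, with group means of at most 0.301 CPM. Of 13 tested, 6 rose and none fell in activated KO cells, 8 rose and none fell in activated AGN192403 cells and 5 rose and 1 fell in resting AGN192403 cells, whereas 2 rose and 1 fell in resting KO cells. P4hb, the beta subunit of prolyl hydroxylase and a protein disulfide isomerase, rose in all 4 contrasts, from 0.18 in resting KO cells (adjusted p = 0.00247; lost in 1 of 20 alternative analyses) to 0.48 in resting AGN192403 cells (adjusted p = 3.64e-10, edgeR). Mia2 and Mia3, which load large cargo at ER exit sites, rose by 0.46 and 0.45 in activated and by 0.47 and 0.55 in resting AGN192403 cells on the log2 scale (adjusted p from 4.38e-09 to 9.46e-08). The median log2 fold change of the 13 was 0.19 in activated KO cells, 0.24 in activated AGN192403 cells, 0.04 in resting KO cells and 0.25 in resting AGN192403 cells, against -0.01 to 0.02 over all genes.

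Hic1 encodes a zinc finger repressor named for its hypermethylation in cancers, which in mice is induced by retinoic acid in T cells of the gut. It lies on the minus strand of chromosome 11 (GRCm38, 75164565 to 75169519). At rest it was at 71.8 and 79.8 CPM in KO cells, 40.2 and 36.4 CPM in AGN192403 cells and 41.1 and 53.0 CPM in control cells. KO libraries were above and AGN192403 libraries below both control libraries, with log2 fold changes of 0.66 (SE 0.09) for KO and -0.32 (SE 0.10) for AGN192403. In activated cells it was at 21.02 and 23.2 CPM with KO, 26.3 and 20.7 CPM with AGN192403 and 16.6 and 15.9 CPM in control cells. There both KO and AGN192403 libraries were above both control libraries (0.43, SE 0.13, with KO and 0.52, SE 0.13, with AGN192403). AGN192403 cells were thus lower than control cells at rest and higher when activated. The resting AGN192403 value was -0.11 without the second resting control library.

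Of 16 tested genes of HIC1 partners and retinoid response, 3 rose in resting KO cells, as Hic1 was higher. They were Tgm2, a transglutaminase gene that retinoic acid induces (172 and 167 CPM, against 122 and 122 CPM in resting control cells; 0.48, SE 0.04, adjusted p = 5.03e-08), Itga4 (0.29, adjusted p = 0.0127) and Itgb7 (0.21, adjusted p = 0.005, edgeR), which encode the chains of the gut-homing integrin. The Itga4 call was lost in 5 of 20 alternative analyses and the Itgb7 call in 1. In activated cells Tgm2, the retinoid-binding protein gene Crabp2 and the retinol receptor gene Stra6 fell, although the KO call of Stra6 was lost in 4 of 20 alternative analyses. Tgm2 was at 68.1 and 66.4 CPM in activated KO cells and at 30.1 and 30.6 CPM in activated AGN192403 cells, against 88.1 and 91.5 CPM in activated control cells (-0.41, adjusted p = 1.36e-06, and -1.56, adjusted p = 2.78e-16). Hic1 and Tgm2 therefore differed from control cells in opposite directions in the activated groups. Over the list, 0 rose and 5 fell in activated KO cells, 2 rose and 3 fell in activated AGN192403 cells and 1 rose and 3 fell in resting AGN192403 cells, with medians of 0.06, -0.01 and -0.05, and of -0.05 in resting KO cells.
The genes closest to Hic1 over the 12 libraries were Prr5, a subunit of the kinase complex mTORC2 (Pearson r = 0.976), Dctn1 (0.971) and Gramd4 (0.964). Prr5 averaged 36.5 CPM in resting KO cells, 27.4 CPM in resting AGN192403 cells and 27.6 CPM in resting control cells.

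Pygm encodes the muscle form of glycogen phosphorylase, which releases glucose units from glycogen. It lies on the plus strand of chromosome 19 (GRCm38, 6384399 to 6398459). At rest it was at 13.6 and 14.6 CPM in KO cells, 8.56 and 8.44 CPM in AGN192403 cells and 8.79 and 8.62 CPM in control cells. KO libraries were the highest, with a log2 fold change of 0.69 (SE 0.13), and AGN192403 libraries lay just under the control libraries (-0.04, SE 0.14). In activated cells every library had between 13 and 22 counts. These were 1.36 and 2.15 CPM in KO cells, 1.23 and 1.03 CPM in AGN192403 cells and 1.17 and 1.26 CPM in control cells. The log2 fold changes there were 0.44 (SE 0.31) with KO and -0.12 (SE 0.35) with AGN192403, so a difference was not detectable at this depth. Of the 8 skeletal muscle markers Myh1, Myh4 and Mb were at 0 in all 12 libraries. The 8 summed to 5.35 to 6.91 CPM in resting KO cells, 4.33 to 4.86 CPM in resting AGN192403 cells and 6.43 to 6.49 CPM in resting control cells, most of it from Mylpf.

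Glycogen metabolism held 25 other tested genes. Pygl, the liver form of the phosphorylase, rose with KO at rest (78.5 and 84.5 CPM, against 66.5 and 65.7 CPM in control cells; 0.29, SE 0.06, adjusted p = 0.0025) and in activated cells (13.8 and 14.1 CPM, against 10.2 and 9.15 CPM; 0.53, SE 0.12, adjusted p = 0.00253, edgeR). The resting call was lost in 1 of 20 alternative analyses. In resting AGN192403 cells Pygl fell (46.1 and 46.6 CPM; -0.51, adjusted p = 2.22e-06). Pgm3, which makes a precursor of UDP-GlcNAc for glycosylation rather than glycogen, rose in all 4 contrasts and most in resting AGN192403 cells (40.2 and 39.2 CPM, against 16.7 and 13.9 CPM in resting control cells; 1.39, SE 0.09, adjusted p = 2.12e-11); its calls in KO cells were each lost in 1 of 20 alternative analyses. Over the 25 genes, 4 rose and 1 fell in activated KO cells, 2 rose in resting KO cells (Pygl and Pgm3), 4 rose and 5 fell in activated AGN192403 cells and 4 rose and 6 fell in resting AGN192403 cells. The medians lay between -0.08 and 0.02 in all 4 contrasts.
The genes closest to Pygm over the 12 libraries were Tmem131l (Pearson r = 0.996), Ppm1m (0.995, a protein phosphatase gene) and Dtx1 itself (0.994).

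Set against each other, activated KO cells had less of the first 4 genes than activated AGN192403 cells, and resting KO cells had more of the last 4 than resting AGN192403 cells. In activated cells the difference of KO from AGN192403 cells was -0.83 (SE 0.10) for Avil, -0.99 (SE 0.11) for Angptl6, -0.51 (SE 0.12) for Maged1 and -0.67 (SE 0.10) for Ggcx on the log2 scale. For each of these 4 genes both KO libraries were below both AGN192403 libraries. In resting cells it was 1.10 (SE 0.09) for Dtx1, 0.47 (SE 0.07) for Col6a2, 0.98 (SE 0.09) for Hic1 and 0.72 (SE 0.13) for Pygm, with both KO libraries above both AGN192403 libraries. Resting Ggcx (-1.15, SE 0.10) and Angptl6 (-1.66, SE 0.21) were also lower in KO than in AGN192403 cells, while resting Maged1 libraries overlapped. Activated Hic1 libraries overlapped as well (-0.08, SE 0.12). All these values compare groups from which the genes were chosen.

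Activation of control cells was tested, since the choice of the genes did not use it. It shares the control libraries with the contrasts that were used. edgeR called 36.4% of all genes higher and 37.4% lower in activated control cells, and of the 8 genes 2 rose, 5 fell and 1, Ggcx, did not pass. The median log2 fold change of the 8 genes was -1.29, against -0.02 over all genes. Maged1 rose (4.00 and 3.36 CPM in activated, against 0.899 and 1.44 CPM in resting control cells; 1.60, SE 0.29, adjusted p = 2.4e-05). Angptl6 rose as well (2.67 and 4.11 CPM, against 1.90 and 1.82 CPM; 0.87, SE 0.26, adjusted p = 0.0038), but without the second activated control library the change was 0.54 and its adjusted p was 0.151.

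The genes that were highest in resting KO cells all fell on activation. Dtx1 fell most (0.833 and 1.18 CPM in activated, against 18.8 and 22.8 CPM in resting control cells), which is 20.7-fold lower (log2 fold change -4.37, SE 0.19, adjusted p = 1.04e-16). Pygm was 7.12-fold lower (-2.83, SE 0.22, adjusted p = 1.22e-11), Col6a2 5.11-fold lower (-2.35, SE 0.11, adjusted p = 2.02e-16) and Hic1 2.93-fold lower (-1.55, SE 0.12, adjusted p = 8.28e-12). Avil fell too (3.75 and 4.36 CPM, against 9.49 and 7.42 CPM; -1.04, SE 0.20, adjusted p = 6.16e-05, edgeR). The level of Ggcx was 10.5 and 11.3 CPM in activated and 10.1 and 8.32 CPM in resting control cells (0.26, SE 0.14, adjusted p = 0.0993), and it passed in 2 of 20 alternative analyses, one without the first resting control library (0.39, adjusted p = 0.0463) and one without the 3 libraries with more Malat1 than their partners (0.45, adjusted p = 0.0331).

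Beside control cells, activation went with other values in KO and AGN192403 cells, given here as a description. Avil was higher in activated than in resting KO cells (1.35, SE 0.13) and AGN192403 cells (1.51, SE 0.11), where control cells had less of it when activated. For Maged1 the values were 3.33 (SE 0.22) in KO cells and 3.55 (SE 0.20) in AGN192403 cells, and for Angptl6 they were 2.45 (SE 0.18) in KO cells and 1.78 (SE 0.13) in AGN192403 cells, above those of control cells. Dtx1, Col6a2 and Pygm were lower in activated cells of all 3 kinds, with log2 fold changes between -4.33 and -2.94 in KO cells and between -3.91 and -2.67 in AGN192403 cells. Hic1 was lower by 1.78 (SE 0.10) in KO cells but by 0.71 (SE 0.11) in AGN192403 cells.

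**Figure D3:**
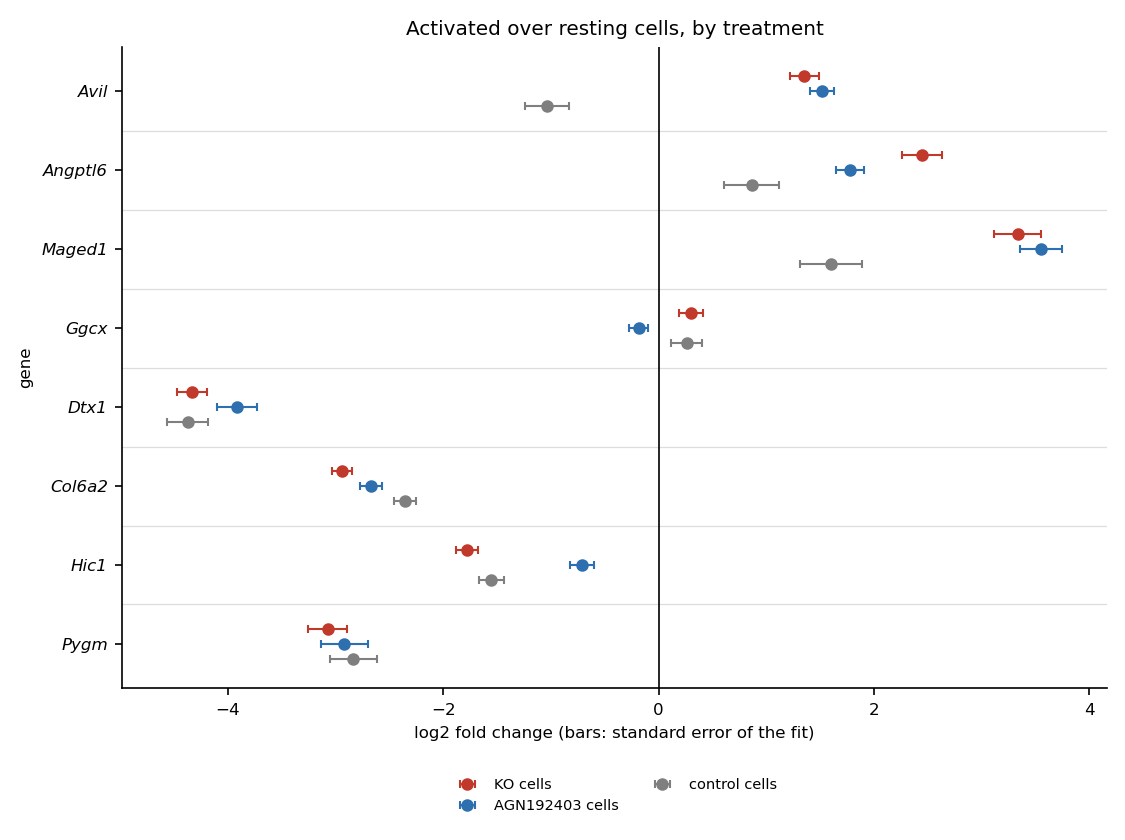
Log2 fold change of activated over resting cells for each gene (rows) in KO (red), AGN192403 (blue) and control cells (grey), with bars for 1 standard error of the fit. Avil lies right of 0 in KO cells (1.35) and AGN192403 cells (1.51) and left of 0 in control cells (-1.04), while Dtx1, Col6a2, Hic1 and Pygm lie left of 0 in all 3.

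Avil, Angptl6 and Col6a2 were plotted beside the gene that each overlaps or pairs with. Tsfm, on the strand opposite to Avil, was not called in any KO or AGN192403 contrast, and A230050P20Rik, on the strand opposite to Angptl6, was called in resting AGN192403 cells only. In activated cells both the KO and the AGN192403 libraries of A230050P20Rik were above both control libraries. Col6a1, like Col6a2, was highest in resting KO cells, but its resting AGN192403 and control libraries overlapped.

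**Figure D4:**
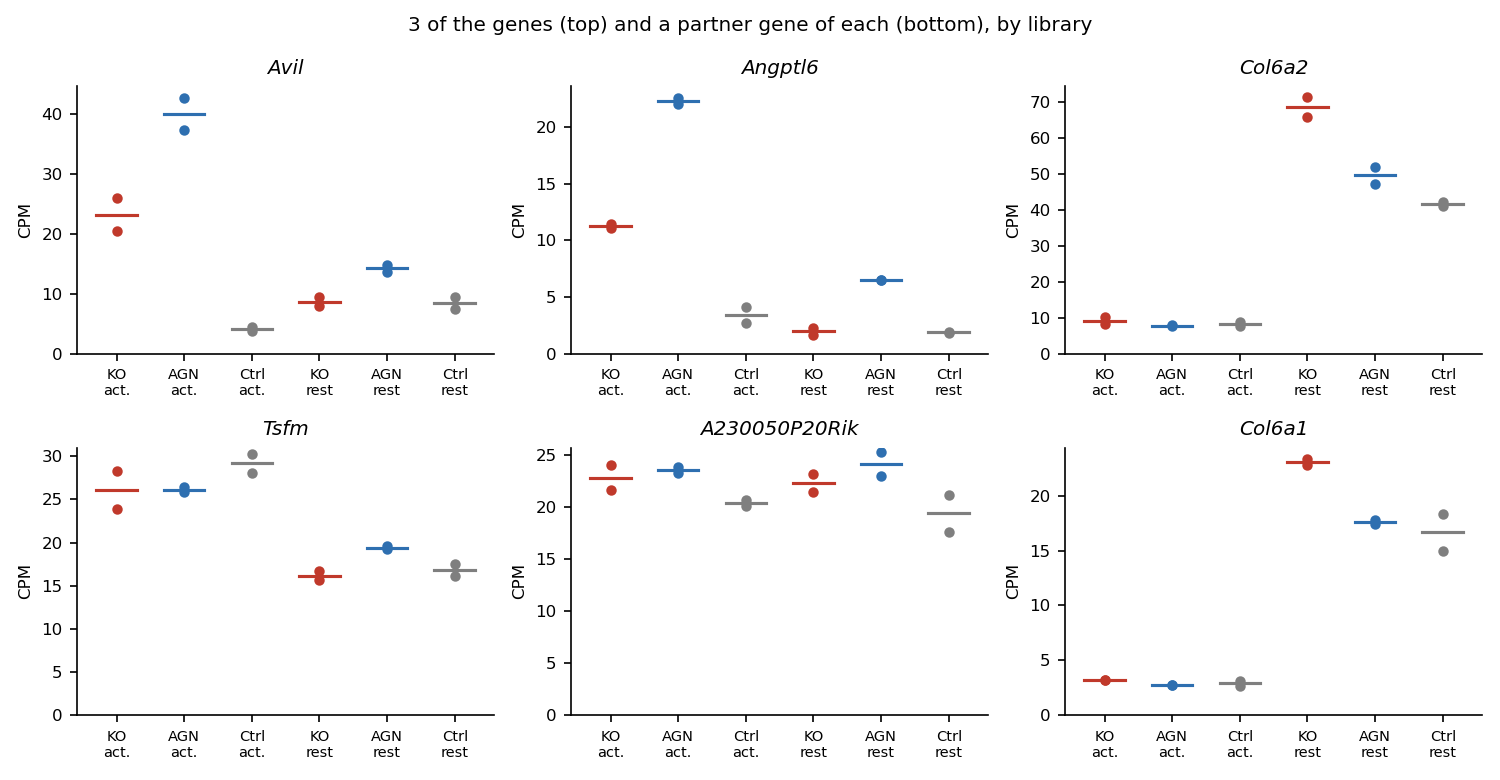
Level in CPM (vertical axes, starting at 0) of Avil, Angptl6 and Col6a2 in the top row and of Tsfm, A230050P20Rik and Col6a1 in the bottom row, in KO, AGN192403 (AGN) and control (Ctrl) cells; points are single libraries and lines are means of 2. In activated cells Avil spans 4.06 to 40.04 CPM in group means while Tsfm spans 26.1 to 29.2 CPM, and Col6a1 is highest in resting KO cells (23.1 CPM) as Col6a2 is (68.7 CPM).

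Some of the other genes next to the 8 differed in the same direction as their neighbor in a contrast and some did not. On activation of control cells 36.4% of all genes were called higher and 37.4% lower, so nothing is read from a shared direction there. Rasgrp2, a guanine exchange factor gene 881 bases from Pygm on the same strand, averaged 247 CPM in resting KO cells and 224 CPM in resting control cells (0.15, adjusted p = 0.0465; lost in 5 of 20 alternative analyses), and it fell on activation of control cells by 4.00 on the log2 scale (adjusted p = 1.58e-24, edgeR), as Pygm did. Rasgrp2 also fell in resting (-0.45, adjusted p = 6.91e-08) and activated AGN192403 cells (-0.46, adjusted p = 0.00358, edgeR). The Pygm values there were -0.04 (SE 0.14) and -0.12 (SE 0.35). Mat2a, 2087 bases from Ggcx on the other strand, averaged 151 CPM in resting AGN192403 cells and 148 CPM in resting control cells (0.04, adjusted p = 0.623), where Ggcx differed most. Mat2a was called higher in resting KO cells (0.16, adjusted p = 0.0247) and lower in activated AGN192403 cells (-0.11, adjusted p = 0.0328, edgeR). Vamp8, 23605 bases from Ggcx on the other strand, was called higher in activated KO cells (0.22, adjusted p = 0.0282, edgeR) but in no other KO or AGN192403 contrast. Ggcx was above control cells in each of these contrasts. Rasal1, 605 bases from Dtx1 on the other strand, rose on activation of control cells (1.85, adjusted p = 5.63e-09), where Dtx1 fell, and Oas2, 18406 bases from Dtx1 on the same strand, fell with it (-1.77, adjusted p = 2.15e-06). Ftcd, 5424 bases from Col6a2 on the other strand, also fell there (-1.18, adjusted p = 0.022, edgeR; lost in 5 of 19 alternative analyses).

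Among themselves the last 4 genes varied together over the 12 libraries, with Pearson r of log2 CPM between 0.924 (Col6a2 and Hic1) and 0.994 (Dtx1 and Pygm). Libraries of both states entered these values. The first 4 genes were less alike, with r between 0.356 (Maged1 and Ggcx) and 0.861 (Angptl6 and Maged1). Per kilobase of exon, the scale on which levels of different genes can be set side by side, Hic1 was the highest of the 8 in resting KO cells (20.2 CPM per kb), against 8.25 CPM per kb for Col6a2 and 0.273 CPM per kb for Maged1. In activated AGN192403 cells Angptl6 (14.1 CPM per kb) and Avil (11.8 CPM per kb) were the highest, and Dtx1 was the lowest (0.226 CPM per kb).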

How the data were processed

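RNA was sequenced from 12 libraries in 6 groups, assigned per the labels. The authors deposited 1 table of whole read counts, with a row for each gene and a column for each library. The labels name STAR 2.6.0c, HTSeq and the build GRCm38 (mm10), whereas the paper gives a different STAR release, and neither the strand setting nor the HTSeq version is given in the sources used here. The methods describe stranded libraries of polyadenylated RNA. Of the 46603 identifiers, 46005 took a symbol from GENCODE M21 and the other 598 held 0.0709% of the counts.

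Genes were kept by filterByExpr (13167 genes, 99.9% of the counts), scaled by TMM (factors 0.976 to 1.02) and fitted with 1 mean per group over all 12 libraries by the quasi-likelihood method of edgeR 4.0.16 in R 4.3.3, with 6 residual degrees of freedom and a common coefficient of biological variation of 0.0306. Calls were made at an adjusted p under 0.05 (Benjamini-Hochberg, all genes tested). The study used DESeq2, run here as an alternative (version 1.42.0). CPM values are TMM-scaled, correlations used log2 CPM with a prior count of 2, and standard errors (SE) were derived from the F statistic. The 8 genes and the 10 gene lists were chosen with earlier results of these data known. Each list was described by its number of called genes, leaving the 8 genes out, and by its median. The genes named are the 8, the annotated genes before and after each, the 3 genes with at least 5 CPM in their highest group that correlated best with each, up to 4 called genes per list and contrast by size of change, and Tmed10; Dtx4, Maged2, Nqo1, Pgm3, Pygl, Tgm2, Mageh1 and Atf5, all named by that rule, were picked for values per library after these were seen. Transcript stretches of 65 bases were compared between genes for shared sequence. Promoter windows are from RefSeq (GRCm38.p6), with a window for all 8 genes. The fit was checked on simulated counts. Alternatives were DESeq2, other scaling, other filters, fits of the libraries of 1 contrast alone, a replicate block, leaving out each library and leaving out 3 libraries high in Malat1; the last was chosen after seeing the data.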

Additional observations from a re-analysis of the deposited data

Results flagged for a closer look

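In 5 cases the same contrast went one way in every library of one setting and the opposite way in every library of another. The difference was not tested in any of them, since the genes were chosen on these contrasts. Avil was higher in activated than in resting KO cells (1.35 on the log2 scale) and lower in activated than in resting control cells (-1.04), a difference of 2.39. In AGN192403 cells its change with activation was 1.51, against -1.04 in vehicle cells, a difference of 2.55. The change of Ggcx with activation was -0.18 in AGN192403 cells and 0.26 in vehicle cells, a difference of -0.45, and with 0.30 in KO cells against -0.18 in AGN192403 cells it differed by 0.48 between these. The SEs of these Ggcx changes were 0.09 in AGN192403, 0.14 in vehicle and 0.11 in KO cells. The change in vehicle cells was tested and not called (adjusted p = 0.0993, edgeR). The AGN192403 effect on Hic1 was 0.52 in activated cells and -0.32 in resting cells, a difference of 0.84. The resting value was -0.11 without the second resting control library. Groups held 2 libraries each, too few to look for single libraries that stand apart within a group.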

How the results depend on the processing

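Each contrast was rerun under 20 alternatives. With DESeq2 the number of genes called was 1356 in activated KO cells (2583 with edgeR), 358 in resting KO cells (979), 2882 in activated AGN192403 cells (4570) and 1829 in resting AGN192403 cells (3341), and the number called over the lists was 22, 10 and 27 in activated KO, resting KO and resting AGN192403 cells (37, 16 and 41 with edgeR). Leaving out 1 library at a time gave 1538 to 2977 genes in activated KO cells (26 to 41 on the lists), 317 to 1477 in resting KO cells (9 to 23), 3551 to 4586 in activated AGN192403 cells (43 to 55), 1861 to 3701 in resting AGN192403 cells (26 to 42) and 9046 to 9930 in activated control cells (91 to 106), and 6 to 8 of the 8 genes passed in the last. Counts moved by over 1.5 times without the first activated KO library (1686) or the first activated control library (1538) for activated KO cells, without the first (317) or second (471) resting KO library, the first resting control library (349) or the first activated AGN192403 library (1477) for resting KO cells, and without the second resting AGN192403 library for resting AGN192403 cells (1861 genes, 26 on the lists). The list count in resting KO cells was 9 without the first resting KO library. Why these counts moved was not tested, apart from the loss of a library in its own group. None of the 7 calls of the 8 genes with activation of control cells changed sign. Untested values near 0 did under some alternatives: Avil and Angptl6 in resting KO cells, Maged1 in both resting groups and between them, Col6a2 in both activated groups, Pygm in activated AGN192403 cells, and Hic1 between activated KO and AGN192403 cells. Of the genes beside them, Tsfm, which was not called, changed sign in resting KO cells without the second resting KO library or the second resting control library (-0.1005 to 0.0206 over all libraries left out), and A230050P20Rik changed sign with activation of control cells without the second resting control library (-0.0571 to 0.2078).

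The deviations of same-numbered libraries correlated at -0.00507 to 0.239 over 15 pairs of groups and were above 0.1 in 3: resting and activated control cells (0.189), resting control and activated AGN192403 cells (0.239), and activated AGN192403 and activated control cells (0.213). Since the other 12 pairs were not above 0.1, the numbers were not taken as pairs. With the replicate number as a block, 2993 genes were called in activated KO cells, 1398 in resting KO cells, 4848 in activated AGN192403 cells, 3661 in resting AGN192403 cells and 9825 in activated control cells, and 7 of the 8 genes again passed in the last. Low counts limit Dtx1 and Pygm in activated cells and Maged1 at rest, where a library held 9 to 30 counts.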
